A study of Mus musculus with 6 samples.

Results

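The 6 mature microRNAs (miRNAs) described here are mmu-miR-10a-5p, mmu-miR-10a-3p, mmu-miR-10b-5p, mmu-miR-10b-3p, mmu-miR-196a-5p and mmu-miR-196b-5p (written below without the species prefix), which are made from hairpins inside the mouse Hox gene clusters. They were taken by name from the deposited count table, and 6 of 6 were present among its 1390 miRNAs. The table comes from small-RNA sequencing of whole thymus from wild-type C57BL mice aged 5 weeks, in a study of competing RNAs after irradiation. The irradiated group (n = 3) was exposed to X-rays (dose 6 Gy, rate 800 cGy/min, source at 40 cm), and its thymus was taken 24 h later. The control group (n = 3) was not irradiated, and neither group carries a transgene or a mutation that the labels name.

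A miRNA guides a silencing complex to messenger RNAs that match its seed, bases 2 to 8. Hox genes encode transcription factors that set the position of cells along the body axis, and the miR-10 and miR-196 hairpins sit between or inside them and are read in the same direction. MiR-196 is known to direct cleavage of Hoxb8 messenger RNA in the mouse embryo, and miR-10a has been studied in regulatory T cells and in endothelium. Each hairpin gives a 5p and a 3p strand, of which usually the 5p strand is kept in the miR-10 and miR-196 families.

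The mature sequences are shown because the members fall into near-identical pairs, which bears on every value below. They are as deposited, 5′ to 3′, with the seed in capitals, and 6 of 6 were identical to the RefSeq entries (GRCm38.p6).
miR-10a-5p: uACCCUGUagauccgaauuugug
miR-10b-5p: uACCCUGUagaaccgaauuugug
miR-10a-3p: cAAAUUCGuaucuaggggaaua
miR-10b-3p: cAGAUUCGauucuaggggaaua
miR-196a-5p: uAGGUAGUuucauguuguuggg
miR-196b-5p: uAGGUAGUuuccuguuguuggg
MiR-10a-5p and miR-10b-5p share the seed ACCCUGU and differ at 1 of 23 bases, U12A, counted from 1 at the 5′ end with the miR-10a-5p base first. MiR-196a-5p and miR-196b-5p share the seed AGGUAGU and differ at 1 of 22 bases, A12C, with the miR-196a-5p base first. No other miRNA of the table has either seed. The 3p strands of miR-10a and miR-10b differ at 3 bases (A3G, U9A and A10U, miR-10a-3p base first), 1 of them in the seed. A read with an error at base 12 can therefore be assigned to the wrong 5p member, while the 3p strands separate the Hoxb and Hoxd loci more clearly.

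The hairpins of miR-10a and miR-10b show both strands, in capitals, whose levels are compared below.
mir-10a: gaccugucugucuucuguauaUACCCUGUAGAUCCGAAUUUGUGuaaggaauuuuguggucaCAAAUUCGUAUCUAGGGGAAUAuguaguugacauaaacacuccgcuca
mir-10b: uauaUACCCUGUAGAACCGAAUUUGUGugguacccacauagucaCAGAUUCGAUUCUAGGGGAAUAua
Mir10a lies at chr11:96317165-96317274 (GRCm38, plus strand), between Hoxb5 and Hoxb4 and 1.05 kb before Hoxb4, and no GENCODE M21 transcript spans it. Mir10b lies at chr2:74726070-74726137 (plus strand) in an intron of 2 Hoxd4 transcripts and of 1 Hoxd3 transcript. MiR-196a-5p is made from 2 hairpins. Mir196a-1 lies at chr11:96265164-96265265 (plus strand), 6.24 kb before Hoxb9 and outside any transcript. Mir196a-2 lies at chr15:102973350-102973434 (plus strand), between Hoxc10 and Hoxc9 and in an intron of 1 Hoxc5 transcript. Mir196b lies at chr6:52230081-52230165 (minus strand) within Hoxa9, where 2 of 3 spanning transcripts have an exon that overlaps it. The counts do not say which Mir196a hairpin a miR-196a-5p read came from.

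**Figure D1:**
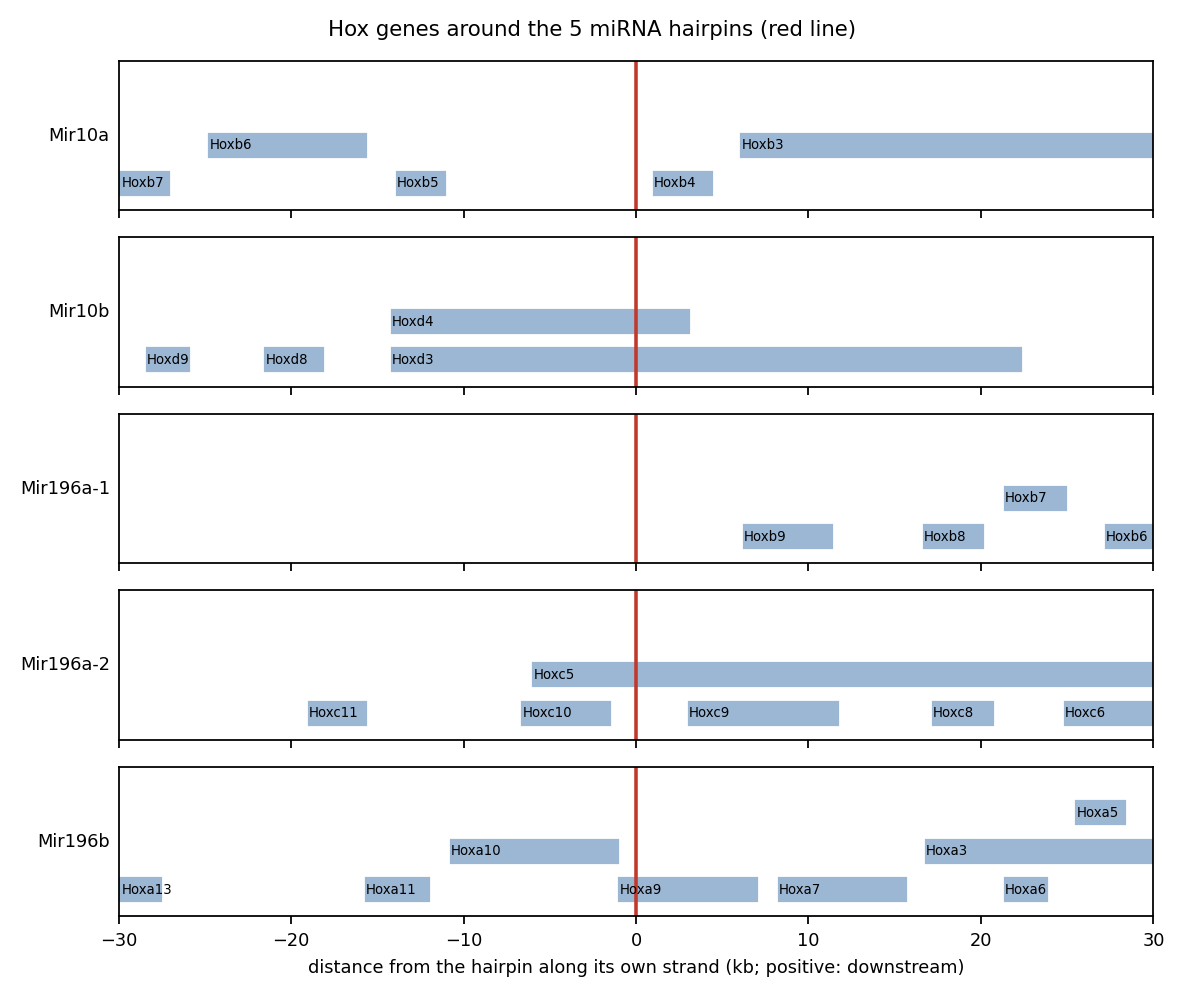
Hox genes (blue bars, GENCODE M21 gene extents) around each of the 5 hairpins (red lines), as distance along the hairpin's own strand in kb. Each hairpin lies on the same strand as its neighbours, and Mir10a stands 1.05 kb before Hoxb4.

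Library totals were 8532223 to 9287017 counts in irradiated and 7730641 to 8522928 in control libraries. A count of 0 allows up to 3 counts, or 0.323 to 0.388 CPM, for counting error only. Levels below are CPM, counts scaled to a common library total with trimmed-mean (TMM) factors, and changes are log2 fold changes of irradiated over control from edgeR's quasi-likelihood test, with p-values adjusted by the Benjamini-Hochberg method over 519 tested miRNAs. Marker miRNAs of the thymus differed in level between the groups. The 6 thymocyte and lymphoid miRNAs were counted in every library, and 5 fell and 1 did not pass, miR-150-5p (−0.31, edgeR adjusted p of 0.373, overlapping groups). They summed to 6879 to 11386 CPM in irradiated and 101335 to 168285 CPM in control libraries, and the control sums were mostly miR-181a-5p. In irradiated replicates 1, 2 and 3, miR-181a-5p stood at 4227, 2178 and 3570 CPM and miR-142a-5p at 4417, 2655 and 3092 CPM. In bulk tissue, fewer cells of a type and less RNA per cell cannot be told apart, and a level is always relative to the rest of the library.

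The 5p strands of miR-10 made up almost all of the members' reads and rose in the irradiated thymus, by 4.17 times for miR-10a-5p and 2.73 times for miR-10b-5p. The 3p strands of both hairpins and miR-196a-5p also rose, at far lower levels. MiR-196b-5p, the rarest member in irradiated libraries, was lower, with a call that did not last under any of 15 alternatives. Of the 6 members, 5 were called higher and 1 lower at an adjusted p of 0.05, where 61.3% of all tested miRNAs were called (27.7% higher and 33.5% lower). In all 6 the groups did not overlap, with 5 higher and 1 lower in irradiated libraries, as in 68.6% of all tested miRNAs (32.0% higher and 36.6% lower). Both miR-10a-3p and miR-196b-5p reached the abundance filter of 1.17 CPM in 3 libraries through 1 group only, the irradiated libraries for miR-10a-3p and the control libraries for miR-196b-5p, so these counts and the median below are a description only. The median log2 change was 1.35 over the members and 0.01 over all tested miRNAs.

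The scale itself moved these numbers. The median change of all tested miRNAs was 0.44 when upper-quartile factors were used, 0.12 for median-of-ratios factors and −0.13 for plain library totals. Of all calls, 59.7% were higher with upper-quartile factors, 53.4% when miR-21a-5p was left out, 38.4% with library totals and 45.3% with TMM factors. Under each of these scalings every member kept its direction.

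The 6 members together held 0.703%, 1.38% and 1.01% of the counts in irradiated replicates 1, 2 and 3, against 0.255%, 0.456% and 0.335% in control replicates 1, 2 and 3. The 95% Wilson intervals of these shares reach at most 0.0078 percentage points to either side, for counting error only. The groups did not overlap, and the mean share was 1.03% ± 0.337 in irradiated and 0.349% ± 0.101 in control libraries (SD, n = 3 each), with an exact two-sided permutation p of 0.1, which is the lower limit for 3 against 3. MiR-10a-5p and miR-10b-5p held 99.5% to 99.7% of the members' counts in every library.

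MiR-10a-5p, the main strand of the Hoxb hairpin, stood at 3080, 7721 and 4585 CPM in irradiated replicates 1, 2 and 3, against 1141, 1308 and 1240 CPM in control replicates 1, 2 and 3. All irradiated libraries lay above all control libraries, and the irradiated ones spread far more widely. The means were 5129 ± 2368 CPM in irradiated and 1230 ± 84.1 CPM in control libraries (SD, n = 3 each), a log2 fold change of 2.06 ± 0.34 (SE, 95% interval 1.31 to 2.81, edgeR adjusted p of 6.3e-04). By abundance it ranked 29th, 19th and 25th in the irradiated and 62nd, 54th and 57th in the control libraries. The highest value was in irradiated replicate 2.

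MiR-10b-5p, the main strand of the Hoxd hairpin, stood at 4840, 6264 and 5364 CPM in irradiated replicates 1, 2 and 3, against 1949, 1951 and 2139 CPM in control replicates 1, 2 and 3. Its irradiated libraries lay closer together than those of miR-10a-5p, and again all were above the control libraries. The means were 5489 ± 720 CPM in irradiated and 2013 ± 109 CPM in control libraries (SD, n = 3 each), a log2 fold change of 1.45 ± 0.23 (SE, 95% interval 0.94 to 1.96, edgeR adjusted p of 5.0e-04). Since reads can pass between the 2 near-identical miRNAs, their counts were also summed before the fit. Such a sum does not correct for any read counted under both names. The sum averaged 10618 CPM (SD 3088) in irradiated and 3243 CPM (SD 145) in control libraries (n = 3 each), a log2 fold change of 1.72 ± 0.27 (SE, edgeR adjusted p of 4.8e-04).

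**Figure D2:**
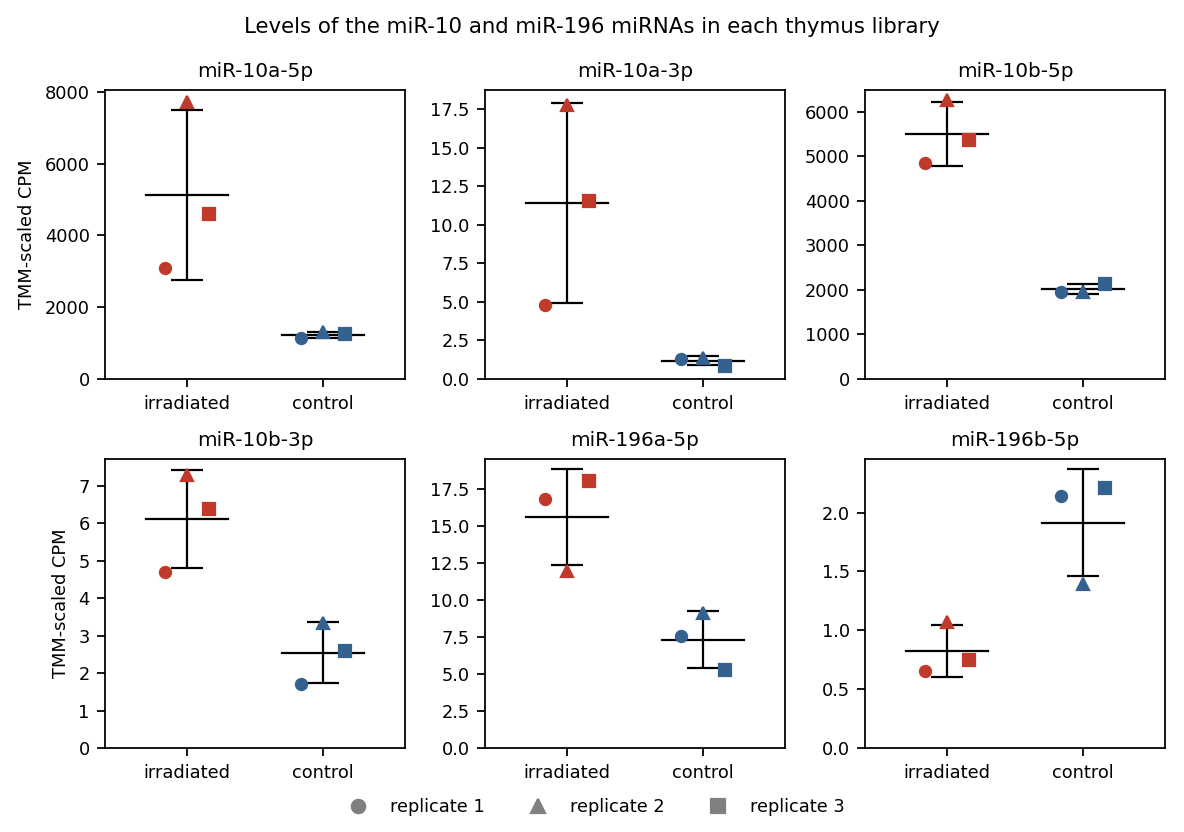
TMM-scaled CPM of each member in the 3 irradiated (red) and 3 control (blue) libraries, with marker shapes for the replicate numbers and bars for the mean ± SD. MiR-10a-5p runs from 3080 to 7721 CPM in irradiated libraries and from 1141 to 1308 CPM in control libraries, and miR-196b-5p is the one member whose irradiated values lie below the control values.

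The 3p strands gave a second reading of each locus. MiR-10a-3p had 37, 149 and 109 reads in irradiated replicates 1, 2 and 3, against 9, 15 and 7 reads in control replicates 1, 2 and 3. That is 4.83, 17.8 and 11.6 CPM in irradiated and 1.28, 1.39 and 0.859 CPM in control libraries, without overlap. Its log2 fold change was 3.25 ± 0.52 (SE, 95% interval 2.09 to 4.42, edgeR adjusted p of 5.8e-04), and counting error is large at the control level. Since miR-10a-3p passed the filter through the irradiated libraries, where it is high, its p is a description and not independent support.

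MiR-10b-3p stood at 4.70, 7.28 and 6.37 CPM in irradiated replicates 1, 2 and 3, against 1.71, 3.34 and 2.58 CPM in control replicates 1, 2 and 3. Every irradiated library lay above every control library. Its log2 fold change was 1.25 ± 0.37 (SE, 95% interval 0.42 to 2.07, edgeR adjusted p of 0.0147). Without control replicate 1 the change was 1.09 and did not pass (edgeR adjusted p of 0.0538). Its 15 alternatives gave adjusted p-values from 0.00177 to 0.0986.

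MiR-196a-5p, from the Hoxb and Hoxc hairpins, stood at 16.8, 11.9 and 18.05 CPM in irradiated replicates 1, 2 and 3, against 7.56, 9.09 and 5.28 CPM in control replicates 1, 2 and 3. Here irradiated replicate 2 was the lowest of its group, not the highest as for the miR-10 strands. The log2 fold change was 1.09 ± 0.34 (SE, 95% interval 0.34 to 1.84, edgeR adjusted p of 0.018). The call was lost without control replicate 1 (1.19, adjusted p of 0.0534) and without control replicate 3 (1.02, adjusted p of 0.069). Its alternatives with replicate irradiated libraries gave adjusted p-values from 0.00302 to 0.121.

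MiR-196b-5p, from the Hoxa hairpin, had 5, 9 and 7 reads in irradiated replicates 1, 2 and 3, against 15, 15 and 18 reads in control replicates 1, 2 and 3. It stood at 0.652, 1.07 and 0.743 CPM in irradiated and 2.14, 1.39 and 2.21 CPM in control libraries. In irradiated libraries these levels were close to the 3-count limit of detection. The log2 fold change was −1.18 ± 0.44 (SE, 95% interval −2.17 to −0.20, edgeR adjusted p of 0.0386), and over its 15 alternatives the adjusted p ran from 0.054 to 0.213. As it passed the filter through the control libraries alone, where it is high, this p too is a description. Summed with miR-196a-5p before the fit, the 2 miR-196 miRNAs averaged 16.4 ± 3.03 CPM in irradiated and 9.22 ± 1.56 CPM in control libraries (SD, n = 3 each). The log2 fold change of that sum was 0.83 ± 0.31 (SE, edgeR adjusted p of 0.0372), and it did not pass without irradiated replicate 1 (0.77) or 3 (0.80) or without control replicate 1 (0.95), 2 (0.94) or 3 (0.83). Its adjusted p ran from 0.00564 to 0.234 over the alternatives with replicate irradiated libraries.

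The authors' deposited table gives log2 fold changes of 2.08 for miR-10a-5p, 3.28 for miR-10a-3p, 1.501 for miR-10b-5p, 1.30 for miR-10b-3p, 1.16 for miR-196a-5p and −1.16 for miR-196b-5p. In the authors' deposited table the adjusted p of miR-196b-5p is 0.19, above 0.05, and those of the other 5 are below 0.05. These values come from the same libraries.

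Ratios between members within a library do not depend on the scaling. In all, 6 were compared, each with an exact two-sided permutation test whose smallest p is 0.1, so none could pass 0.05. With Benjamini-Hochberg adjustment over the 6 ratios the p-values ran from 0.15 to 0.7.

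The Hoxb and Hoxd hairpins were compared through both strands. MiR-10a-5p had 0.636, 1.23 and 0.855 times the reads of miR-10b-5p in irradiated replicates 1, 2 and 3, against 0.586, 0.671 and 0.58 times in control replicates 1, 2 and 3. MiR-10b-5p was thus the more abundant in 5 of 6 libraries, with irradiated replicate 2 the exception, and the groups overlapped. The log2 ratio was higher by 0.52 in irradiated libraries (−0.19 ± 0.48 in irradiated and −0.71 ± 0.12 in control libraries, SD, n = 3 each, exact permutation p of 0.2). Leaving out irradiated replicate 2 gave 0.27, and leaving out irradiated replicate 1 gave 0.75.

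For the 3p strands, a ratio chosen after seeing the data, miR-10a-3p had 1.03, 2.43 and 1.81 times the reads of miR-10b-3p in irradiated replicates 1, 2 and 3, against 0.76, 0.425 and 0.349 times in control replicates 1, 2 and 3. The groups did not overlap. The log2 ratio was higher by 1.78 in irradiated libraries (exact permutation p of 0.1, n = 3 each), a difference in the same direction as that of the 5p strands. It is no separate support, because this ratio follows from the 5p ratio and the strand ratios given below. It also rests on only 9, 15 and 7 reads of miR-10a-3p in control replicates 1, 2 and 3.

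The 5p strand of miR-10a was 629, 433 and 394 times as abundant as its 3p strand in irradiated replicates 1, 2 and 3, against 842, 910 and 1348 times in control replicates 1, 2 and 3. The irradiated values were all below the control values, and the log2 ratio differed by −1.09 (exact permutation p of 0.1, n = 3 each). The control values rest on only 9, 15 and 7 reads of miR-10a-3p in control replicates 1, 2 and 3, so a few reads move them far. For miR-10b the same ratio was 1016, 853 and 835 in irradiated and 1093, 576 and 811 in control replicates 1, 2 and 3, which overlap (difference 0.17, exact permutation p of 0.7, n = 3 each). Whether the 2 hairpins differ in this respect was not tested.

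MiR-196a-5p had 23.5, 10.6 and 22.7 times the reads of miR-196b-5p in irradiated replicates 1, 2 and 3, against 3.45, 6.35 and 2.35 times in control replicates 1, 2 and 3. The log2 ratio was higher by 2.26 in irradiated libraries, without overlap (exact permutation p of 0.1, n = 3 each). It rests on only 5, 9 and 7 reads of miR-196b-5p in irradiated replicates 1, 2 and 3, close to the 3-count limit. The 4 miR-10 strands together outnumbered the 2 miR-196 members in every library, and the log2 ratio of the families was higher by 0.85 in irradiated libraries (exact permutation p of 0.1, n = 3 each). That difference was 0.47 without irradiated replicate 2.

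**Figure D3:**
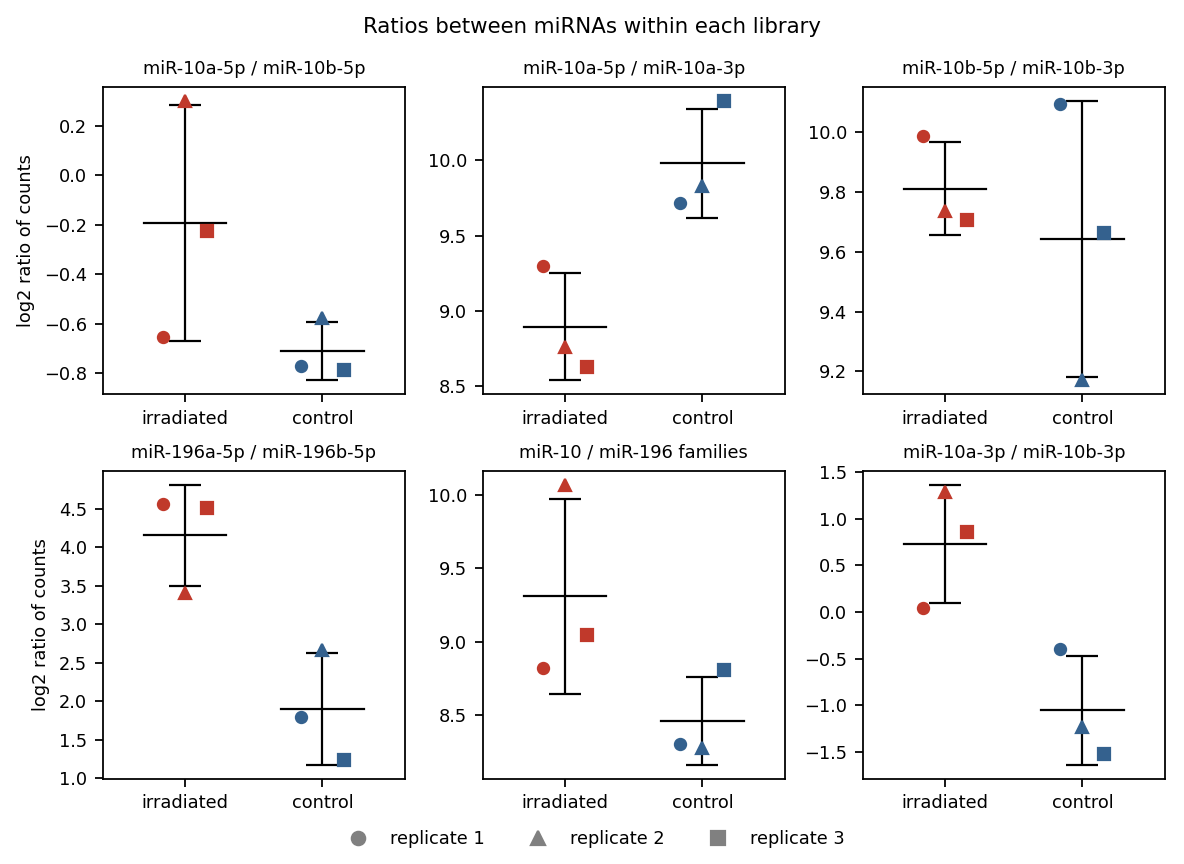
Log2 ratios of read counts between miRNAs within each library (0.5 added to each count), irradiated in red and control in blue, with bars for the mean ± SD. The groups overlap for miR-10a-5p against miR-10b-5p and for the strands of miR-10b, and do not for the other 4 ratios.

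Irradiated replicates 2 and 3 were high in some miRNAs of other tissues. The 3 striated muscle miRNAs (miR-1a-3p, miR-133a-3p and miR-206-3p, none at 0) summed to 602, 20116 and 13396 CPM in irradiated replicates 1, 2 and 3, against 202 to 480 CPM in control libraries, and 3 of 3 rose. That sum is mostly miR-1a-3p, while miR-206-3p stood at 61.2, 320 and 24.1 CPM in irradiated replicates 1, 2 and 3 and was thus lower in replicate 3 than in replicate 1. The 3 erythroid miRNAs (miR-451a, miR-144-3p and miR-486a-5p, none at 0) summed to 604, 5028 and 1982 CPM in irradiated replicates 1, 2 and 3, against 480 to 724 CPM in control libraries, and 2 rose and 1 did not pass. MiR-10a-5p, miR-10a-3p, miR-10b-5p and miR-10b-3p had the same order over the irradiated libraries, replicate 2 highest and replicate 1 lowest. This order was not particular to them or to those tissues, as the endothelial miR-126a-3p and the fibroblast miR-199a-3p had it too. It was not general either, as the epithelial miR-205-5p was lowest in irradiated replicate 2. What sets the order was not tested.

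With irradiated replicate 1 as the only irradiated library, a comparison chosen after seeing the data, the log2 fold change was 1.52 for miR-10a-5p, 2.21 for miR-10a-3p, 1.47 for miR-10b-5p, 1.39 for miR-196a-5p, 1.05 for miR-10b-3p and −1.31 for miR-196b-5p. These are given as values of 1 library, with no call, because the fit takes its error from the control libraries and the irradiated values of most miR-10 strands spread more widely. Some miRNAs of other cell types also moved with the group. The 2 endothelial strands (none at 0) summed to 15678 to 24542 CPM in irradiated and 5059 to 5756 CPM in control libraries. Of these miR-126a-3p rose (2.02, edgeR adjusted p of 1.5e-04) while miR-126a-5p stayed short of the threshold (0.09, adjusted p of 0.768 in edgeR, overlapping groups). The 5 epithelial miRNAs (none at 0) summed to 11156 to 16343 CPM in irradiated and 3583 to 4434 CPM in control libraries, and 4 rose and 1 did not pass. The 5 smooth muscle and fibroblast miRNAs (none at 0) summed to 186759 to 299426 CPM in irradiated and 85009 to 233165 CPM in control libraries, which overlap, and 3 rose and 2 did not pass. The 3 brown fat miRNAs (none at 0) summed to 5663, 22938 and 17309 CPM in irradiated replicates 1, 2 and 3, against 7964 to 10074 CPM in control libraries, and 1 rose and 2 did not pass. The myeloid miR-223-3p stood at 12 to 83.7 CPM in irradiated and 21.3 to 41.7 CPM in control libraries and did not pass. The smooth muscle and fibroblast sums were mostly miR-143-3p (0.73, overlapping groups), and the brown fat sums mostly miR-378a-3p (0.75, overlapping groups). MiR-199a-3p (3.07), miR-199a-5p (1.43) and miR-214-3p (1.555) rose without overlap, while the groups overlapped for miR-145a-5p (0.61). The part of these cell types in the members' changes was not tested.

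Other miRNAs of the Hox clusters were scarce. Of 5 listed, 4 were in the table and 1 was abundant enough to test, miR-615-3p, from a hairpin in the Hoxc cluster. It stood at 1.31, 10.6 and 3.61 CPM in irradiated replicates 1, 2 and 3, against 1.71, 1.02 and 1.96 CPM in control replicates 1, 2 and 3. The groups overlapped, with the high value in irradiated replicate 2. The log2 fold change was 1.74 ± 0.67 (SE, edgeR adjusted p of 0.0447), and 0.91 without irradiated replicate 2 (edgeR adjusted p of 0.157). Its alternatives with replicate irradiated libraries gave adjusted p-values from 7.0e-04 to 0.167. It also did not pass without control replicate 1 (1.81), 2 (1.47) or 3 (1.99), with limma-voom (1.32) or with the replicate block (1.40), and with irradiated replicate 1 alone it was −0.03. The locus-specific strands miR-196a-1-3p (3, 8 and 4 reads in irradiated and 1, 10 and 7 in control replicates 1, 2 and 3) and miR-196a-2-3p (at most 3 reads in any library) were too rare to say which Mir196a hairpin was in use.

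The wider miR-10 family outside the Hox clusters includes miR-99, miR-100 and miR-125. MiR-99 and miR-100 resemble miR-10 along most of their length but carry another seed, shown here in capitals beside which the miR-10 seed above can be read.
miR-99a-5p: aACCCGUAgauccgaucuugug
miR-100-5p: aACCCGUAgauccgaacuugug
Of 5 such miRNAs tested, 5 were called higher and 0 lower, where 27.7% of all tested miRNAs were called higher. In each the groups did not overlap, with irradiated libraries higher, as in 32.0% of all tested miRNAs (68.6% in either direction). MiR-100-5p, which had the highest level, stood at 13553, 9528 and 11487 CPM in irradiated replicates 1, 2 and 3, against 5098, 3852 and 4846 CPM in control replicates 1, 2 and 3. Irradiated replicate 2 was its lowest irradiated library, the reverse of miR-10a-5p, and also the lowest for miR-99b-5p. MiR-99a-5p and miR-125a-5p instead had the order of miR-10a-5p, with irradiated replicate 2 highest and replicate 1 lowest. MiR-125b-5p was highest in irradiated replicate 3. The log2 fold change was 1.33 ± 0.25 (SE, edgeR adjusted p of 0.00146) for miR-100-5p, 1.96 ± 0.27 (SE, 2.0e-04) for miR-99a-5p and 0.79 ± 0.24 (SE, 0.0176) for miR-125b-5p. The call for miR-125b-5p was lost without irradiated replicate 3 (0.76) and without control replicate 2 (0.65), and with library totals (0.69), no low-count filter (0.73) or a mean of at least 10 CPM (0.54).

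**Figure D4:**
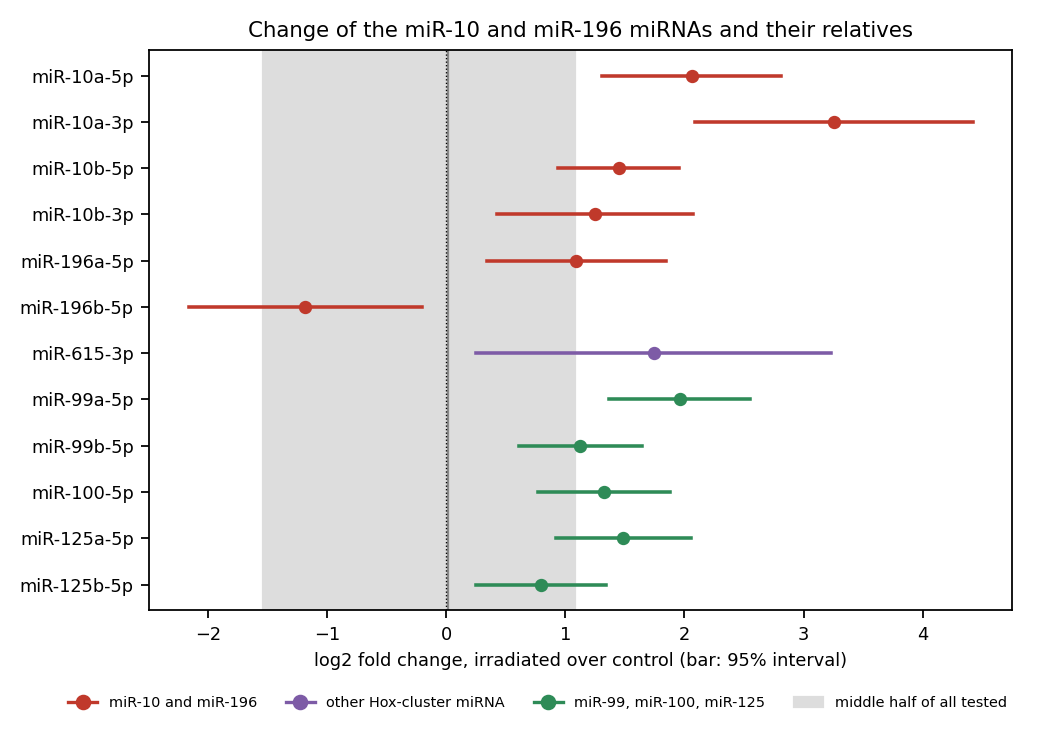
Log2 fold change of irradiated over control with its 95% interval for the 6 members (red), miR-615-3p (purple) and the miR-99, miR-100 and miR-125 relatives (green). The grey band spans the 25th to 75th percentile of all 519 tested miRNAs, −1.54 to 1.08. The estimates of the 5 members that rose lie above it, miR-196a-5p (1.09) at its edge.

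The miRNAs whose profile over the 6 libraries was nearest to each abundant member were found by the root-mean-square difference of log2 CPM, each centred on its own mean, among 310 others with a mean of at least 10 CPM. For miR-10a-5p these were miR-434-3p (0.172), miR-30c-2-3p (0.196) and miR-126a-3p (0.226), where the median over all 310 was 1.11. For miR-10b-5p they were miR-125a-5p (0.0441), miR-125b-2-3p (0.0731) and miR-708-5p (0.0886), where the median was 0.888. MiR-10a-5p and miR-10b-5p differed from each other by 0.385. By this measure miR-10b-5p ranked 24th of 310 in likeness to miR-10a-5p, and miR-10a-5p ranked 55th of 310 in likeness to miR-10b-5p. With 2 groups of 3 libraries, any miRNAs of like group difference come out as near.

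**Figure D5:**
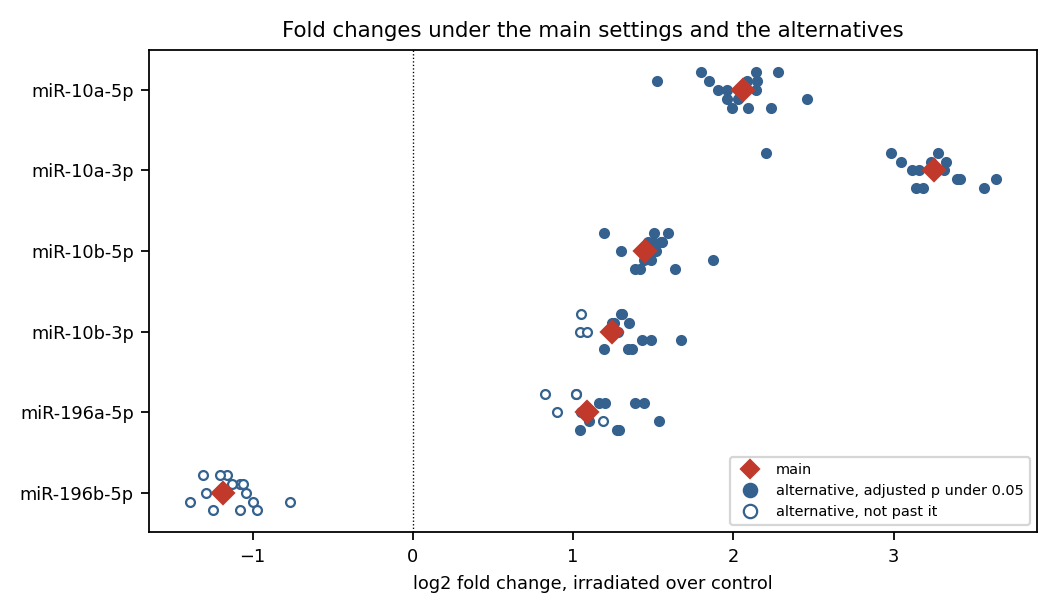
Log2 fold change of each member under the main settings (red diamonds) and each alternative (blue circles, filled where the adjusted p was under 0.05). In every alternative that tested them and kept replicate irradiated libraries, miR-10a-5p, miR-10a-3p and miR-10b-5p passed. Their values there ran from 1.80 to 2.46, 2.985 to 3.64 and 1.19 to 1.87. MiR-196b-5p passed in none. The fit with irradiated replicate 1 as the only irradiated library is among the circles, but its values carry no call. MiR-10a-3p and miR-196b-5p reached the filter through the group where each is high.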

How the data were processed

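Small RNA of whole thymus was sequenced in 3 irradiated and 3 control libraries. The labels' protocols name TRIzol extraction and NEBNext kits for messenger RNA libraries and call the molecule polyA RNA. The deposited counts are of mature miRNAs, and the method of the small-RNA libraries was not given. Per the file headers, the deposited values are counts of reads for each mature miRNA. The aligner, counting tool and genome build were not given in the sources used here, and how reads that match 2 near-identical miRNAs were assigned is not stated. Some miRNAs had equal levels in every library, such as miR-467a-3p and miR-467d-3p (each averaging 14.7 CPM in irradiated and 104.6 CPM in control libraries). Reads may thus be counted under both names and enter the library totals that way. Whether this touches the members was not tested. The deposited table's log2 fold change and adjusted p-value of irradiated over control are the authors' own, and the submitters' processing notes name DESeq2 1.10.1. Another 6 columns of counts match no sample label and were left out.

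The test was edgeR 4.0.16 under R 4.3.3 (TMM factors of 0.823 to 1.39, filterByExpr defaults, robust quasi-likelihood test, group as the only term), on all miRNAs, with Benjamini-Hochberg adjustment over 519 tested miRNAs and a threshold of 0.05. The code was tested on simulated counts. SE is the log2 fold change divided by the root of F. Members were counted singly and, for the near-identical pairs, summed. Ratios within a library used counts plus 0.5, and shares have Wilson intervals (SciPy 1.17.1). Sequences were read from the deposited table and coordinates from RefSeq (GRCm38.p6) and GENCODE M21. Replicate libraries differed from each other by more than counting error, and the labels describe n = 3 mice per group without tying each library to a mouse, so p-values measure the spread between these samples.

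Named miRNAs were the 6 members, the other Hox-cluster miRNAs, the miR-99, miR-100 and miR-125 relatives (3 by level), the 3 nearest profiles to miR-10a-5p and to miR-10b-5p, and marker lists. The 3p ratio and the fit without irradiated replicates 2 and 3 were added after seeing the data. The members and lists were chosen with earlier results of these data known. Alternatives were median-of-ratios, upper-quartile and no factors, no filter, only miRNAs averaging at least 10 CPM, limma-voom (limma 3.58.1), DESeq2 1.42.0, the replicate number as a block, miR-21a-5p left out, and each library left out.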

Additional observations from a re-analysis of the deposited data

How the results depend on the processing

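MiR-10a-5p, miR-10a-3p, miR-10b-5p and the miR-10 5p sum kept their direction in every alternative that tested them. They kept their call in each of these that had replicate irradiated libraries, miR-10a-3p having reached the filter through the irradiated libraries. A mean of at least 10 CPM tested fewer miRNAs, gave 210 calls against 318, and left miR-10a-3p, miR-10b-3p and miR-196b-5p out. Other settings gave 266 to 374 calls.

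MiR-10b-3p, miR-196a-5p, miR-196b-5p and the miR-196 sum lost calls in the same direction, and the cause was not tested. With library totals the log2 change was 1.05 for miR-10b-3p, 0.90 for miR-196a-5p, −1.29 for miR-196b-5p and 0.66 for the miR-196 sum. With a mean of at least 10 CPM it was 0.83 for miR-196a-5p and 0.57 for the sum. MiR-196b-5p did not pass with median-of-ratios factors (−1.08), upper-quartile factors (−0.77), no filter (−1.25), DESeq2 (−1.16), limma-voom (−1.13), or without miR-21a-5p (−0.996). The sum did not pass with no filter (0.78) or DESeq2 (0.90). Without irradiated replicates 2 and 3, where 1 library has no spread of its own, miR-10b-3p was at 1.05, miR-196b-5p at −1.31 and miR-615-3p at −0.026.

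Leaving out each library in turn gave 1.09 to 1.49 for miR-10b-3p, 1.02 to 1.45 for miR-196a-5p, −1.39 to −0.97 for miR-196b-5p and 0.77 to 1.17 for the miR-196 sum. The strand ratio of miR-10b ran from −0.068 (without control replicate 2) to 0.39, which changes its sign.

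With the replicate number as a block, 298 miRNAs were called against 318, and neither miR-196b-5p (−1.18, adjusted p of 0.0909) nor the miR-196 sum (0.83, adjusted p of 0.068) passed. The numbers were not taken as pairs, since the deviations of same-numbered libraries correlated by 0.099, −0.024 and 0.230, and irradiated replicates 1 and 2 each correlated best with another number.

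Counting error is largest for miR-196b-5p and the 3p strands, which had 5 to 18 and 7 to 149 reads per library.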
